A study of Mus musculus with 9 samples.

Results

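The genes described are 35 genes of sterol and fatty acid synthesis, measured by RNA sequencing in a mouse cell culture model of retinal ganglion cell (RGC) aging. They were taken by symbol from the table of 22322 genes, and all 35 passed the filter on low counts, which kept 12145 genes. There were 9 libraries of poly(A) RNA in 3 groups of 3, all from cells labelled as wild type (WT) retinal ganglion cells. The cells were bought from a company and kept in high glucose medium with fetal bovine serum. Normal RGCs received no further agent, aging RGCs were treated with D-galactose, and aging RGCs + USCs medium were treated with D-galactose and then given medium conditioned by urine-derived stem cells (USCs). The phrase "in the medium" refers to the last of these groups. The USCs came from human urine and were removed from the medium before use. The USCs were grown in a purchased medium made for these cells, the composition of which the sources do not give, and normal RGCs with this medium are not analysed here, so factors released by the USCs and the base medium cannot be told apart. The replicates were 3 wells for each group, so p-values measure the spread between wells, which may be technical.

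Cells make cholesterol from acetyl-CoA. The mevalonate pathway builds isoprene units and joins them into farnesyl diphosphate, squalene synthase turns this into squalene, and a chain of sterol enzymes leads through lanosterol to cholesterol. Fatty acids start from the same acetyl-CoA, which acetyl-CoA carboxylase and fatty acid synthase extend before elongases and desaturases modify the chain. Most of these genes are targets of the SREBP transcription factors, encoded by Srebf1 and Srebf2. The escort protein SCAP carries SREBPs from the endoplasmic reticulum to the Golgi, where they are cut to their active form, and the INSIG proteins hold SCAP back when sterols are plentiful. In the retina, cholesterol comes both from synthesis in its own cells and from the blood.

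Of the 35 genes, 28 had at least 1 of 37 promoters in the RefSeq table for GRCm38.p6, each holding 250 bases before and 50 after an annotated start. Fads1, Fdps, Sqle, Scd2, Stard4, Fdft1 and Scd1 had none there. The promoters below belong to 4 synthesis genes with large differences between groups and to the pair Insig1 and Insig2, which moved in opposite directions in aging RGCs. Each is written 5′ to 3′ on the strand of the gene. Capitals mark CCAAT, the letters bound by NF-Y, or its reverse complement ATTGG, and in Hmgcs1 also TCACCCCAC, which matches the sterol response element-like letters TCACNCCAC.
Hmgcs1 promoter, chr13:119690101-119690400, plus strand: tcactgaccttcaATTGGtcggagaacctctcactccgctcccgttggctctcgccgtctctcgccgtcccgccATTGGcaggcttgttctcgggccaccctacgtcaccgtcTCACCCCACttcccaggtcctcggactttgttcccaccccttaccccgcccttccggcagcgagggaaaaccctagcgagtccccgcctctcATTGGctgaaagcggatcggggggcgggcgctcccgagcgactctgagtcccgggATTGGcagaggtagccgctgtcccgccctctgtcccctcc
Idi1 promoter, chr13:8885356-8885655, plus strand: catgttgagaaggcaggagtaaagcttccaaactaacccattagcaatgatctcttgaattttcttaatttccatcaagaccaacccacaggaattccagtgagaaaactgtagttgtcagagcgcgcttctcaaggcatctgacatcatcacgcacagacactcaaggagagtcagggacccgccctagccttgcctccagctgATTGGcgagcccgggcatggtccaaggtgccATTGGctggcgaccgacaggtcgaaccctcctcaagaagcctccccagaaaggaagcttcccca
Cyp51 promoter, chr5:4104648-4104947, minus strand: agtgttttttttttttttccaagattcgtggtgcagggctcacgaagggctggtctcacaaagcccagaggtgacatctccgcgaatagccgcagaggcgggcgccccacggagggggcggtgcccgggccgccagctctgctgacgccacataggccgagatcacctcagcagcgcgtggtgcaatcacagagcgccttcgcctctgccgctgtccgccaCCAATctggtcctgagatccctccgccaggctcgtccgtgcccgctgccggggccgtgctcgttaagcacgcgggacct
Hsd17b7 promoter, chr1:169969156-169969455, minus strand: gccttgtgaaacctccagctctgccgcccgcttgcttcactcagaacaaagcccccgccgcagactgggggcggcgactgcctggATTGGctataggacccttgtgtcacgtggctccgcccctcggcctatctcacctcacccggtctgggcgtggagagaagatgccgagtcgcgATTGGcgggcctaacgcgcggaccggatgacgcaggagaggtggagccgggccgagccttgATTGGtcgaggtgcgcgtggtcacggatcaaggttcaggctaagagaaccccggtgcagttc
Insig1 promoter, chr5:28071162-28071461, plus strand: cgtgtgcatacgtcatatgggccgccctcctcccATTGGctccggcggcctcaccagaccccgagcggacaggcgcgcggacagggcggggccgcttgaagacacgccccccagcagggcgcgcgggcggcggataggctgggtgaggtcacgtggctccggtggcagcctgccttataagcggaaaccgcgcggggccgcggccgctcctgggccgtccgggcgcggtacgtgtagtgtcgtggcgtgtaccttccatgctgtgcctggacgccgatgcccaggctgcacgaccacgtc
Insig2 promoter, chr1:121332540-121332839, minus strand: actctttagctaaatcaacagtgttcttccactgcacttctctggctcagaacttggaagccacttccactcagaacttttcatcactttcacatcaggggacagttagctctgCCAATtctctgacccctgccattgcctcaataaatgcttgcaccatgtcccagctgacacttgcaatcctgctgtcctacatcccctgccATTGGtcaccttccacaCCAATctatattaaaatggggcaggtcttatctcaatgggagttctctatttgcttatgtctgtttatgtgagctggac
Searched on both strands, CCAAT was present in the promoters of 22 of the 28 genes, or 78.6%, against 43.5% of the 9621 genes tested that had a promoter. GGGCGG, the core of a GC box, was present in 23 of 28, or 82.1%, against 69.6% of those genes, and the E-box CACGTG in 5 of 28, or 17.9%, against 11.6%. TCACNCCAC was present only in Hmgcs1 among the 28, against 1.32% of the genes tested. Counted by promoter in place of gene, CCAAT was in 23 of the 37 promoters, GGGCGG in 27, CACGTG in 6 and TCACNCCAC in 1. Over all 32817 promoters in the table, the shares that held the letters were 37.4% for CCAAT, 35.6% for GGGCGG, 7.15% for CACGTG and 1.24% for TCACNCCAC. In Hmgcs1 the match to TCACNCCAC began 137 bases upstream of the start, between ATTGG matches at 45 and 176 bases upstream. Hsd17b7 held ATTGG at 12, 73 and 165 bases upstream and Idi1 at 14 and 45, while Cyp51 held 1 CCAAT at 29 bases. Insig1 held 1 match at 216 bases, and Insig2 held 3, at 29, 46 and 136 bases upstream in the window shown. A further pair of Insig2 windows in the table held none. These are matches of letters, and binding was not measured.

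The library totals lay between 18189616 and 22342288 expected counts, and the TMM factors between 0.9562 and 1.0338. The label of the cells was checked against 12 marker genes of retinal ganglion cells. Pou4f2 and Pou4f3, which encode transcription factors that define these neurons, had 0 counts in all 9 libraries, and Thy1, Sncg, Nefh and Slc17a6 stayed under 1 CPM (the count relative to the library total, scaled by the TMM factor) in every library. Pou4f1 had means of 0.456, 0.876 and 0.423 CPM in normal RGCs, aging RGCs and the medium, and Nefm of 0.557, 0.243 and 0.203. Rbpms, Nefl, Isl1 and Tubb3 were present. The summed level of the 12 markers was from 143.3 to 154.5 CPM in normal RGCs, from 102.4 to 105 in aging RGCs and from 96.53 to 103.6 in the medium. The name RGCs is therefore used here only as the label of the cells. All 7 photoreceptor markers and 5 of 6 markers of Mueller glia and astrocytes were also under 1 CPM in every library, with Crx, Arr3 and Rcvrn at 0 in all. The summed macrophage markers ranged from 63.1 to 72.59 CPM in normal RGCs, from 51.39 to 55.54 in aging RGCs and from 32.9 to 56.13 in the medium. Of these 10 markers C1qa, C1qb, C1qc, Tyrobp and Fcgr3 were under 1 CPM in every library. The largest part of the sum came from Cd68, with means of 38.6, 41.5 and 31.3 CPM in normal RGCs, aging RGCs and the medium. In the same order the means were 15.3, 3.16 and 5.22 CPM for Lyz2, and 3.42, 1.13 and 0.662 for Csf1r. They were 1.84, 0.0529 and 0.614 CPM for Adgre1, and 4.89, 6.83 and 2.76 for Mrc1. Lyz2 had 2.31, 0.992 and 12.3 CPM in the medium libraries. Of 8 epithelial markers Cdh1, Krt5, Krt14 and Cldn4 were under 1 CPM in every library, with Krt5 at 0 in all, and the sum of the list, from 1047 to 1285 CPM, came nearly whole from Krt8, Krt18 and Krt19. Of 8 mesenchymal markers Col1a2, Dcn, Lum and Acta2 were under 1 CPM in every library, and the sum, from 2129 to 2442 CPM, came mostly from Vim and Col3a1.

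In aging RGCs most of the sterol and fatty acid genes were higher than in normal RGCs, and with USCs medium the mevalonate and most sterol genes were higher again. By edgeR's quasi-likelihood test at a Benjamini-Hochberg adjusted p under 0.05, 29 of the 35 genes rose in aging RGCs against normal RGCs and 3 fell, while 23.6% of all genes tested rose and 23% fell. For 32 of the 35 genes no library of one group fell inside the range of the other, against 53% of all genes tested. Of the 29, 5 had a log2 fold change of at least 1, which 1.09% of all genes tested passed upwards. The median log2 fold change of the 35 was 0.45, and that of all genes tested was 0.0018 with 5th and 95th percentiles of -0.64 and 0.55. The genes that fell were Srebf1, Insig2 and Acss2, and Mvk, Me1 and Acaca passed in neither direction. In these bulk samples, more cells of a type and more RNA per cell cannot be told apart.

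In aging RGCs + USCs medium, 25 of the 35 genes rose relative to aging RGCs and 3 fell, against 27.1% and 26% of all genes tested. The groups did not overlap for 29 of the 35, against 59.8% of all genes. No gene of the 35 had a log2 fold change of at least 1 by edgeR, the largest being 0.84 for Pmvk (0.85 by DESeq2), while 1.24% of all genes tested passed this threshold upwards. Their median was 0.24, against -0.0067 for all genes tested with 5th and 95th percentiles of -0.95 and 0.53. Scap, Insig1 and Lpin1 fell, and Tm7sf2, Hsd17b7, Srebf1, Srebf2, Insig2, Me1 and Fasn passed in neither direction. Without TMM factors the split of this comparison was 21 rising and 7 falling, with Tm7sf2, Hsd17b7, Srebf1 and Insig2 added to those that fell. That scaling moved the median of all genes tested from -0.0067 to -0.085, so most genes shifted down with these. Of the 3 falls only that of Lpin1 was called without aging RGCs replicate 2, and likewise without medium replicate 2, where Srebf1 was called as well.

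Relative to normal RGCs, 31 of the genes rose in the medium and 3 fell, against 30.6% and 29.9% of all genes tested, and the groups did not overlap for 32, against 63.8%. A log2 fold change of at least 1 was reached by 15 of the 31, against 1.47% of all genes tested. The median of the 35 was 0.87, against -0.013 for all genes, whose 5th and 95th percentiles were -1.06 and 0.59. Without TMM factors the median of all genes tested in this comparison was -0.11, and fold changes without these factors are read relative to that shift. The 3 comparisons share groups of libraries, so the values of a gene in them are not independent and are only set side by side.

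**Figure D1:**
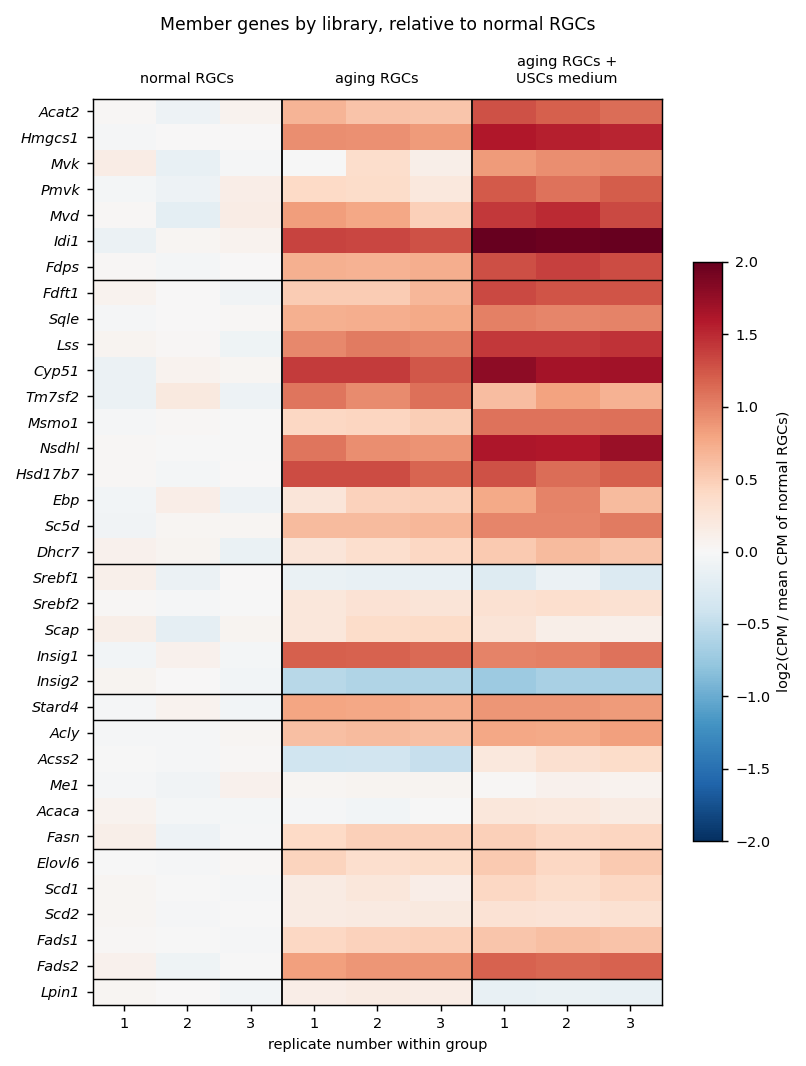
Each row is a gene and each column a library, and the colour gives the log2 ratio of its CPM to the mean CPM of the 3 normal libraries, cut at -2 and 2. Horizontal lines separate the lists, from the mevalonate pathway at the top to Lpin1 at the bottom. In the mevalonate list the medium columns are the darkest in every row, while in Insig2 the aging and medium columns are blue.

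**Figure D2:**
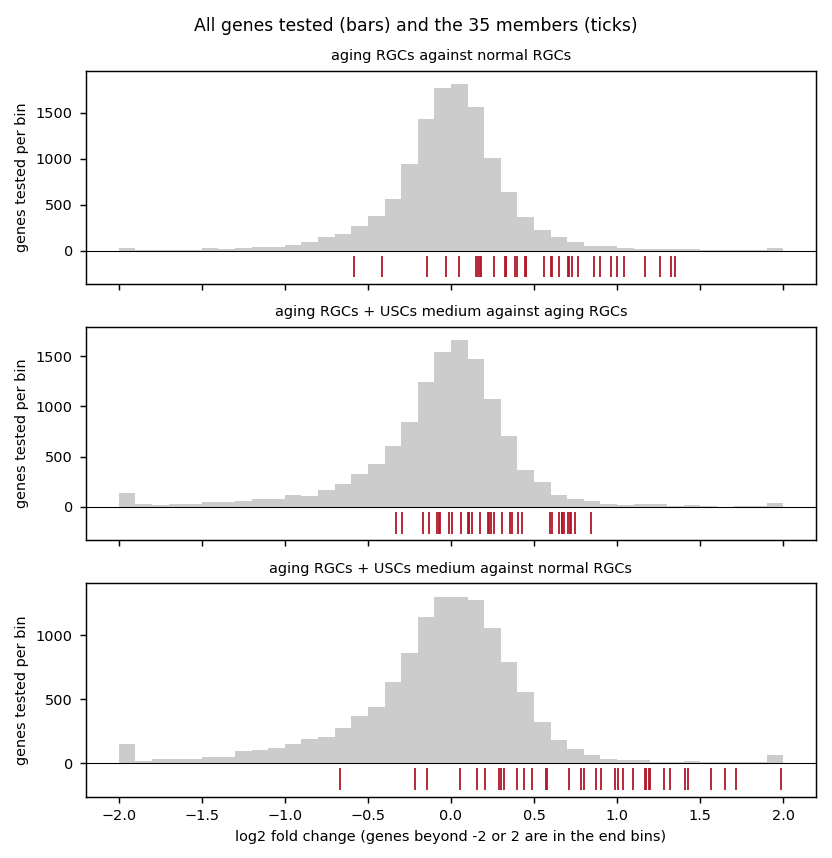
Grey bars count the 12145 genes tested per bin of log2 fold change in each comparison, and red ticks below them mark the 35 sterol and fatty acid genes. The ticks lie mostly to the right of 0, with medians of 0.45, 0.24 and 0.87 from top to bottom.

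The SREBP regulators did not move as a group. In aging RGCs 3 of the 5 rose and 2 fell, against 23.6% and 23% of all genes tested. The summed level of the 5 regulators was from 580.8 to 627.9 CPM in normal RGCs, from 665.7 to 680.5 in aging RGCs and from 651.2 to 675.5 in the medium. Insig1, the INSIG gene that is itself an SREBP target (chromosome 5, 28071363 to 28078662, plus strand in GRCm38), had 37.0, 40.9 and 37.6 CPM in the normal libraries, 88.3, 87.1 and 84.1 in the aging libraries and 76.7, 77.7 and 81.9 with the medium. All aging and medium values of Insig1 lay above the normal ones, and the medium values lay below the aging ones. The log2 fold change of Insig1 was 1.17 ± 0.0506 (SE, edgeR adjusted p = 4.85e-17) in aging against normal RGCs and -0.14 ± 0.0473 (SE, edgeR adjusted p = 0.0178) in the medium against aging RGCs. This small fall was not called without aging replicate 1 (-0.12) or 2 (-0.13), or without medium replicate 1 (-0.11) or 2 (-0.12), where its edgeR adjusted p was 0.0576 to 0.0882. Insig2 encodes the other protein that retains SCAP (chromosome 1, 121304353 to 121332589, minus strand). Its values were 65.6, 63.7 and 61.0 CPM in normal RGCs, 43.3, 41.9 and 41.9 in aging RGCs and 38.5, 40.6 and 40.5 in the medium, so that normal RGCs were highest with no overlap. Insig2 fell in aging RGCs by 0.58 on the log2 scale (SE 0.0519, edgeR adjusted p = 3.01e-10), and its further difference in the medium, -0.086 with a 95% confidence interval of -0.20 to 0.026, did not pass.

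Srebf2, whose protein SREBP2 chiefly drives sterol genes (chromosome 15, 82147181 to 82205379, plus strand), had 253, 245 and 249 CPM in normal RGCs, 291, 305 and 297 in aging RGCs and 308, 316 and 307 in the medium. Normal values were the lowest throughout, and the rise in aging RGCs was 0.26 ± 0.0326 (SE, edgeR adjusted p = 2.07e-07) on the log2 scale. Its difference between the medium and aging RGCs was 0.061, with a 95% interval of -0.0056 to 0.13, and did not pass. Srebf1, whose SREBP1 proteins chiefly drive fatty acid genes, had 222, 190.3 and 209 CPM in normal RGCs, 189, 186 and 188 in aging RGCs and 173, 191 and 172 in the medium. Normal replicate 2 and medium replicate 2 lay close to the aging libraries. The fall of Srebf1 in aging RGCs was called (log2 fold change -0.14, SE 0.0453, edgeR adjusted p = 0.0104), but without normal replicate 1 it was -0.0935 and its adjusted p by edgeR was 0.0991. Its difference between the medium and aging RGCs, -0.071, was called only without medium replicate 2 among the fits that left out a library (-0.12, edgeR adjusted p = 0.0399). Against normal RGCs Srebf1 was lower in the medium (log2 fold change -0.22, SE 0.0454, edgeR adjusted p = 0.000175), although the values of these groups overlapped. An exon of Srebf1 shares bases with Rai1 on the other strand and with Mir6922 on the same strand, and how strand was counted is not given in the sources used here. Scap had 50.2, 41.1 and 48.3 CPM in normal RGCs, 54.2, 60.3 and 60.8 in aging RGCs and 55.5, 50.4 and 50.2 in the medium. Aging values lay above all normal values, but the first medium value lay inside the aging range. Scap rose in aging RGCs by 0.33 ± 0.0644 (SE, edgeR adjusted p = 0.000123) and fell in the medium (log2 fold change -0.17, SE 0.0642, edgeR adjusted p = 0.0285), and the fall was not called by DESeq2 (adjusted p = 0.0532). Without aging replicate 2 or 3, or medium replicate 2 or 3, the fall of Scap was 0.14 in size on the log2 scale and its edgeR adjusted p was 0.113 to 0.128. Against normal RGCs Scap was higher in the medium by 0.16 ± 0.0650 (SE, edgeR adjusted p = 0.036), which was not called without normal replicate 2 (0.0776) or without medium replicate 1 (0.11). It was also not called by DESeq2 (adjusted p = 0.0507), with upper-quartile factors (0.12), without TMM factors (0.0586), or by limma on log2(FPKM + 1) (0.12) and log2(FPKM + 0.1) (0.13).

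Genes of the mevalonate pathway were higher in aging RGCs and higher again in the medium. In aging RGCs 6 of its 7 genes rose, with a median log2 fold change of 0.71, while 23.6% of all genes tested rose. In the medium all 7 rose over aging RGCs, with a median of 0.67, while 27.1% of all genes tested rose. Against normal RGCs all 7 were higher in the medium, with a median of 1.32, while 30.6% of all genes tested rose. The summed level of the 7 genes was from 340.1 to 355.6 CPM in normal RGCs, from 610.9 to 641.1 in aging RGCs and from 973.7 to 999.2 in the medium, with no overlap between groups. Idi1, the isomerase that makes dimethylallyl diphosphate (chromosome 13, 8885501 to 8892451, plus strand), had 59.5, 66.5 and 67.9 CPM in normal RGCs, 165, 163 and 156 in aging RGCs and 257, 251 and 259.7 in the medium. The 3 groups did not overlap, and the medium libraries were 3.97-fold above the normal ones. Its log2 fold change was 1.32 ± 0.0441 (SE, edgeR adjusted p = 1.18e-19) in aging RGCs and 0.67 ± 0.0400 (SE, edgeR adjusted p = 5.88e-14) in the medium over aging RGCs. Hmgcs1, the HMG-CoA synthase (chromosome 13, 119690379 to 119708260, plus strand), had 101, 104 and 104 CPM in normal RGCs, 195, 194 and 185 in aging RGCs and 313, 304 and 296 in the medium. These groups were also separate, with log2 fold changes of 0.90 ± 0.0372 (SE, edgeR adjusted p = 1.96e-17) and 0.67 ± 0.0350 (SE, edgeR adjusted p = 2.91e-15). Idi1 and Hmgcs1 each share exon bases with a gene on the other strand.

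Acat2, the cytosolic thiolase that opens the pathway, had 52.7, 48.5 and 54.1 CPM in normal RGCs, 82.6, 76.8 and 76.3 in aging RGCs and 125, 119 and 113 in the medium. Fdps, the farnesyl diphosphate synthase, had 94.2, 89.7 and 92.7 CPM in normal RGCs, 152, 149 and 152 in aging RGCs and 225, 237 and 227 in the medium. In both genes each group lay apart from the others and the order was normal, aging, medium. The log2 fold changes of Acat2 were 0.60 and 0.60, and those of Fdps 0.71 and 0.61, in aging over normal and medium over aging RGCs. The counts of Acat2 carried decimals in all 9 libraries and those of Fdps in 4 (estimated counts are fractional where reads match more than 1 gene), and Fdps shares exon bases with Gm43738 on its own strand.

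Among the 3 enzymes that turn mevalonate into isopentenyl diphosphate, the change in aging RGCs was uneven. Mevalonate kinase, Mvk (chromosome 5, 114444269 to 114460591, plus strand), had 9.40, 7.66 and 8.29 CPM in normal RGCs, 8.38, 10.8 and 9.16 in aging RGCs and 15.2, 16.1 and 16.2 in the medium. Normal and aging values of Mvk overlapped, and every medium value was higher than both. Its difference between aging and normal RGCs was 0.16 with a 95% interval of -0.077 to 0.40, while the medium was higher than aging RGCs by 0.74 ± 0.109 (SE, edgeR adjusted p = 1.49e-06). Phosphomevalonate kinase, Pmvk, had 18.1, 17.3 and 20.2 CPM in normal RGCs, 24.4, 24.0 and 21.5 in aging RGCs and 43.4, 39.2 and 42.7 in the medium. The normal and aging ranges of Pmvk were close but separate, and the medium range was far above them. Pmvk had the largest log2 fold change of the 35 genes in the medium against aging RGCs, 0.84 ± 0.0717 (SE, edgeR adjusted p = 8.76e-11), against 0.33 ± 0.0777 (SE, edgeR adjusted p = 0.000865) in aging RGCs. Mvd, the decarboxylase, had 7.88, 6.74 and 8.63 CPM in normal RGCs, 13.9, 13.3 and 10.8 in aging RGCs and 20.7, 21.8 and 19.3 in the medium. Its groups were separate, although aging replicate 3 was lower than the other two, and its log2 fold changes were 0.71 ± 0.113 (SE, edgeR adjusted p = 8.25e-06) and 0.70 ± 0.101 (SE, edgeR adjusted p = 1.13e-06).

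**Figure D3:**
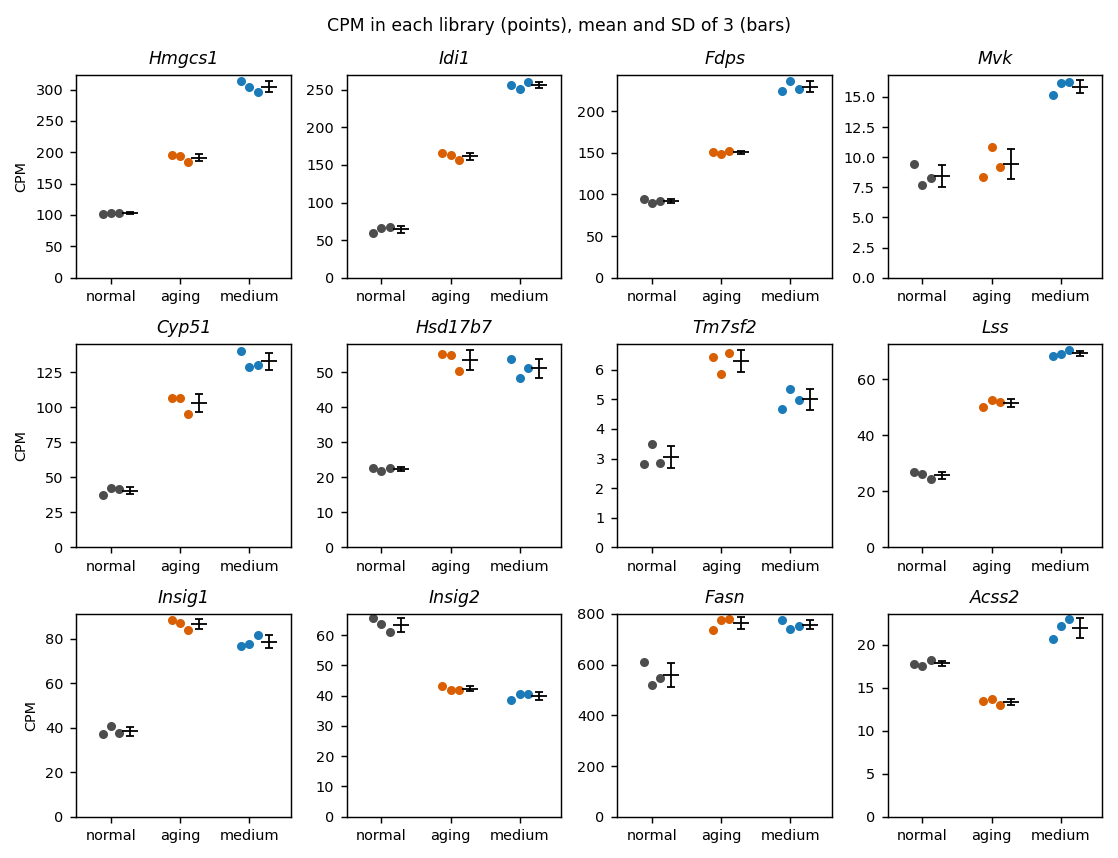
CPM of 12 of the genes in each library (points) with the mean and SD of the 3 libraries (bars), each panel with its own axis from 0. In Hmgcs1, Idi1 and Fdps the points climb from normal to aging RGCs and again in the medium, in Mvk those of normal and aging RGCs overlap, in Hsd17b7 and Fasn those of aging RGCs and the medium overlap, and Acss2 is lowest in aging RGCs.

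All 11 genes from squalene synthase to cholesterol rose in aging RGCs, while 23.6% of all genes tested rose. The median log2 fold change of the 11 was 0.73, with a range of 0.33 to 1.35. In the medium 9 of them rose over aging RGCs, with a median of 0.37, while 27.1% of all genes tested rose. Against normal RGCs all 11 were higher, with a median of 1.10, while 30.6% of all genes tested rose. The summed level of the 11 genes was from 526.9 to 542.3 CPM in normal RGCs, from 879.9 to 895.6 in aging RGCs and from 1155 to 1172 in the medium. Cyp51, the lanosterol demethylase (chromosome 5, 4081145 to 4104746, minus strand), rose most of the 35 genes in aging RGCs. It had 37.3, 42.4 and 41.8 CPM in normal RGCs, 107, 107 and 95.3 in aging RGCs and 139.9, 129 and 129.9 in the medium, and the groups did not overlap. Its log2 fold change was 1.35 ± 0.0550 (SE, edgeR adjusted p = 1.49e-17) in aging RGCs and 0.37 ± 0.0494 (SE, edgeR adjusted p = 3.85e-07) in the medium over aging RGCs, and part of an exon is shared with Akap9 on the other strand. Lss, the lanosterol synthase, had 26.8, 26.2 and 24.4 CPM in normal RGCs, 50.1, 52.7 and 51.8 in aging RGCs and 68.5, 69.0 and 70.4 in the medium. Lss was separate in all groups and lay just under the threshold of 1, with a log2 fold change of 0.999 ± 0.0560 (SE, edgeR adjusted p = 1.93e-14) in aging RGCs and 0.43 ± 0.0508 (SE, edgeR adjusted p = 5.02e-08) in the medium.

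Fdft1, the squalene synthase, had 46.04, 44.0 and 41.7 CPM in normal RGCs, 62.4, 62.7 and 69.3 in aging RGCs and 110.1, 105 and 105 in the medium. The groups of Fdft1 were separate, and its log2 fold changes were 0.56 ± 0.0529 (SE, edgeR adjusted p = 1.03e-09) and 0.72 ± 0.0491 (SE, edgeR adjusted p = 8.49e-13). Its counts carried decimals in all 9 libraries, and an exon overlaps Ctsb on the other strand. The next enzyme, squalene epoxidase Sqle, had means of 129.5 ± 1.99, 215 ± 4.15 and 257 ± 2.31 CPM (SD, n = 3) in normal RGCs, aging RGCs and the medium, and log2 fold changes of 0.73 and 0.26, both called. Sc5d, a sterol desaturase, had 108, 116 and 116 CPM in normal RGCs, 177, 176 and 181 in aging RGCs and 224, 224 and 234 in the medium. Its groups were separate, with log2 fold changes of 0.65 ± 0.0379 (SE, edgeR adjusted p = 4.27e-14) and 0.35 ± 0.0364 (SE, edgeR adjusted p = 3.59e-09). Ebp, the sterol isomerase, rose by 0.40 and 0.40, and Dhcr7, the reductase that yields cholesterol, by 0.33 and 0.24 on the log2 scale, all called by edgeR. On deposited FPKM values the rise of Ebp in aging RGCs and that of Dhcr7 in the medium were not called.

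Msmo1, Nsdhl and Hsd17b7 act in turn to remove methyl groups from the sterol ring, and they differed from one another. Msmo1, the monooxygenase, had 76.8, 79.4 and 77.2 CPM in normal RGCs, 104, 105 and 109.6 in aging RGCs and 166, 166 and 167 in the medium. Nsdhl, the dehydrogenase (chromosome X, 72918557 to 72958514, plus strand), had 19.0, 18.5 and 18.6 CPM in normal RGCs, 39.4, 35.6 and 34.7 in aging RGCs and 57.4, 56.6 and 61.8 in the medium. For both genes the 3 groups were separate and the medium was highest. Hsd17b7, the ketoreductase (chromosome 1, 169949535 to 169969241, minus strand), had 22.7, 21.9 and 22.5 CPM in normal RGCs, 55.3, 55.0 and 50.3 in aging RGCs and 53.8, 48.3 and 51.1 in the medium. Its aging and medium values overlapped, and both groups lay far above normal RGCs. In aging RGCs the log2 fold changes were 0.45 ± 0.0401 (SE, edgeR adjusted p = 4.03e-10) for Msmo1, 0.97 ± 0.0670 (SE, edgeR adjusted p = 1.99e-12) for Nsdhl and 1.26 ± 0.0615 (SE, edgeR adjusted p = 8.17e-16) for Hsd17b7. In the medium over aging RGCs they were 0.65, with a 95% interval of 0.57 to 0.73, for Msmo1, 0.68 (0.56 to 0.80) for Nsdhl and -0.067 (-0.18 to 0.048) for Hsd17b7. The interval of Hsd17b7 did not overlap those of the other two.

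Tm7sf2, a sterol reductase that acts after Cyp51, was the other sterol enzyme that did not rise in the medium. It had 2.82, 3.49 and 2.86 CPM in normal RGCs, 6.44, 5.87 and 6.58 in aging RGCs and 4.67, 5.36 and 4.97 in the medium. The medium values lay between those of normal and aging RGCs without overlap. Its log2 fold change was 1.04 ± 0.159 (SE, edgeR adjusted p = 3.98e-06) in aging RGCs and -0.33 ± 0.150 (SE, edgeR adjusted p = 0.0649) in the medium over aging RGCs, so the lower level in the medium was not called, although it was called by edgeR's likelihood ratio test (adjusted p = 0.0492), with upper-quartile factors (0.0448), without TMM factors (0.0227) and by limma on log2(FPKM + 1) (0.0472). Tm7sf2 shares exon bases with Vps51 on its own strand.

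Set against normal RGCs, the medium group held the largest differences. Idi1 was 3.97-fold higher (log2 fold change 1.99, SE 0.0433, edgeR adjusted p = 7.84e-24), Cyp51 3.29-fold (log2 fold change 1.72, SE 0.0540, edgeR adjusted p = 2.8e-20) and Nsdhl 3.13-fold (log2 fold change 1.65, SE 0.0640, edgeR adjusted p = 2.75e-18). Hmgcs1 was 2.96-fold higher (log2 fold change 1.57, SE 0.0365, edgeR adjusted p = 2.1e-23) and Lss 2.69-fold (log2 fold change 1.43, SE 0.0544, edgeR adjusted p = 2.07e-18). The other genes with a log2 fold change of at least 1 were Mvd (1.41), Fdps (1.32), Fdft1 (1.28), Acat2 (1.20), Hsd17b7 (1.19), Pmvk (1.17), Fads2 (1.17), Msmo1 (1.10), Insig1 (1.03) and Sc5d (1.00). Sqle, at 0.99, and Mvk, at 0.90, lay just under that threshold. The genes that were lower than in normal RGCs were Insig2 (-0.67), Srebf1 (-0.22) and Lpin1 (-0.15), the last of which was not called without normal replicate 1 or 2, or medium replicate 1 or 3 (-0.14 to -0.12), nor by DESeq2 (adjusted p = 0.0589) or with no filter on low counts (adjusted p = 0.0627 by edgeR).

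**Figure D4:**
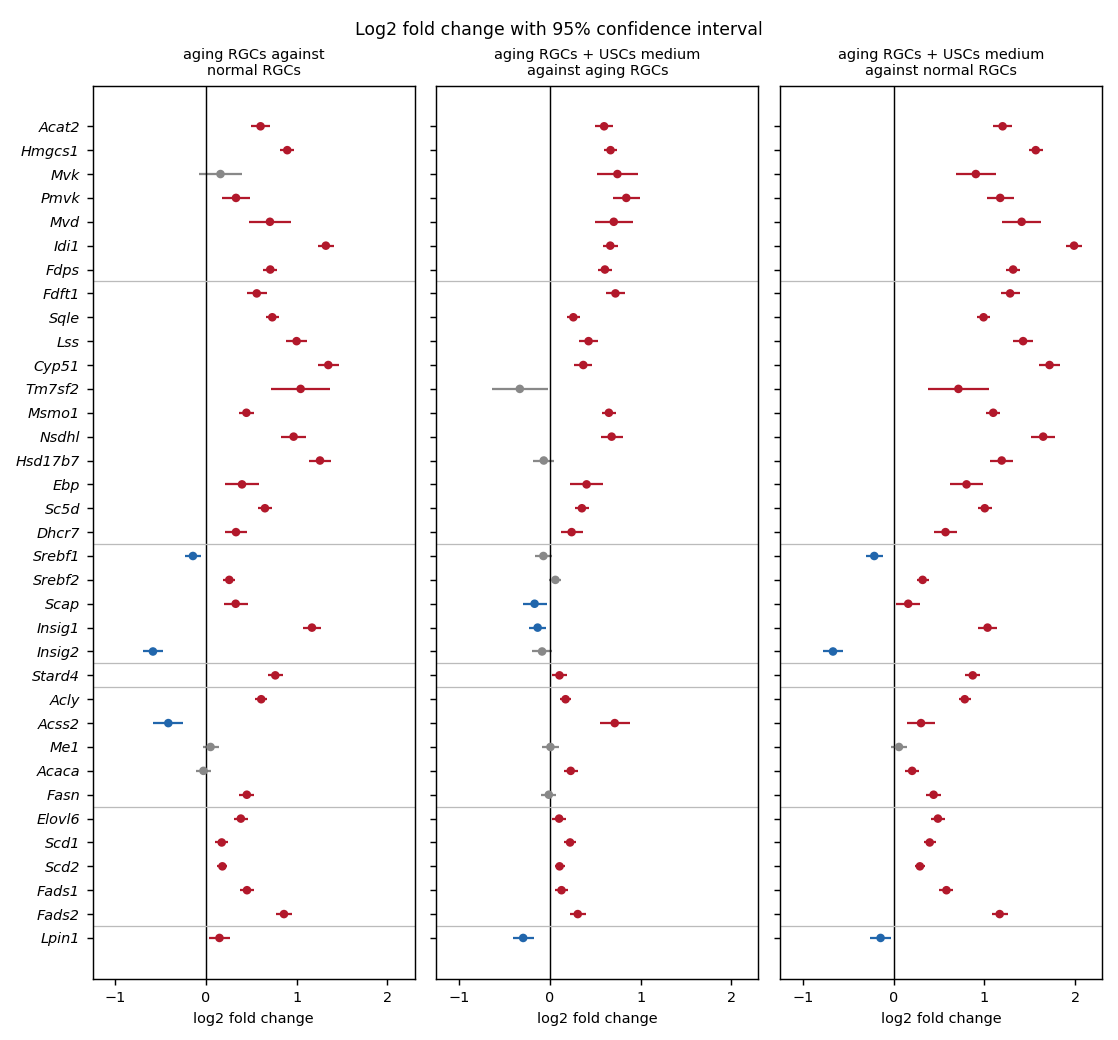
Log2 fold change of each gene (point) with its 95% confidence interval (bar) in the 3 comparisons. Red and blue mark genes that rose or fell at an adjusted p under 0.05 by edgeR over all genes tested, grey marks the others. In the middle panel the mevalonate genes at the top lie at 0.60 to 0.84, and the regulators lie between -0.17 and 0.061.

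Stard4, which carries cholesterol between membranes, rose from 78.0 ± 3.67 CPM (SD, n = 3) in the normal group to 132 ± 3.12 in aging RGCs (log2 fold change 0.76, SE 0.0415, edgeR adjusted p = 8.85e-15). In the medium it reached 143 ± 2.05 CPM, and this small further rise, 0.11, was not called without TMM factors, with upper-quartile factors, on FPKM values, without aging replicate 3 (0.0886) or without medium replicate 1 or 2 (0.10 in both).

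The genes that supply acetyl-CoA and NADPH and start fatty acids were called in both directions. In aging RGCs 2 of the 5 rose and 1 fell, against 23.6% and 23% of all genes tested. In the medium 3 rose over aging RGCs, against 27.1%, and 4 were higher than in normal RGCs, against 30.6%. Acly, the ATP citrate lyase that makes cytosolic acetyl-CoA from citrate, rose by 0.61 ± 0.0312 (SE, edgeR adjusted p = 2.45e-15) in aging RGCs and by 0.17 ± 0.0307 (SE, edgeR adjusted p = 2.64e-05) in the medium. Acss2, which makes acetyl-CoA from acetate (chromosome 2, 155517948 to 155585724, plus strand), had 17.7, 17.6 and 18.2 CPM in normal RGCs, 13.5, 13.7 and 13.0 in aging RGCs and 20.7, 22.2 and 23.0 in the medium. The 3 groups of Acss2 were separate, with aging RGCs lowest and the medium highest. It fell in aging RGCs (log2 fold change -0.42, SE 0.0814, edgeR adjusted p = 0.00012) and rose in the medium (log2 fold change 0.72, SE 0.0802, edgeR adjusted p = 1.72e-08). Acss2 shares exon bases with Acss2os, Ggt7 and Gss on the other strand. Fasn, the fatty acid synthase, rose from 558 ± 46.01 CPM (SD, n = 3) to 763 ± 24.2 in aging RGCs (log2 fold change 0.45, SE 0.0402, edgeR adjusted p = 3.36e-10). In the medium Fasn stood at 757 ± 18.1 CPM, a difference from aging RGCs of -0.011 with an interval of -0.093 to 0.07. Acaca, the acetyl-CoA carboxylase that commits carbon to fatty acids, differed between aging and normal RGCs by -0.028 with an interval of -0.11 to 0.05, and rose in the medium by 0.23 ± 0.0377 (SE, edgeR adjusted p = 8.9e-06). Me1, the malic enzyme that makes NADPH, passed in no comparison, with log2 differences of 0.051, 0.0063 and 0.057 and intervals that stayed within -0.083 and 0.15.

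All 5 elongation and desaturation genes rose in each comparison. Of all genes tested, 23.6% rose in aging RGCs, 27.1% in the medium over aging RGCs and 30.6% in the medium over normal RGCs. The median log2 fold change of the 5 was 0.38 in aging RGCs, 0.13 in the medium over aging RGCs and 0.49 in the medium over normal RGCs. Fads2, a desaturase of polyunsaturated fatty acids, moved most, with 67.7, 59.8 and 63.5 CPM in normal RGCs, 113, 117 and 117 in aging RGCs and 145, 141 and 144 in the medium. Its groups were separate, and its log2 fold changes were 0.86 ± 0.0444 (SE, edgeR adjusted p = 2.96e-15) and 0.31 ± 0.0418 (SE, edgeR adjusted p = 4.77e-07). Fads1, its neighbour on chromosome 19, rose by 0.45 and 0.13, and Elovl6, an elongase of saturated chains, by 0.38 and 0.10. The stearoyl-CoA desaturases Scd1 and Scd2, which make monounsaturated fatty acids, rose by 0.17 and 0.18 in aging RGCs and by 0.22 and 0.11 in the medium, all called by edgeR. Scd1 and Scd2 are similar genes, and both had counts with decimals in 5 libraries. In the medium over aging RGCs the rises of Fads1, Scd2 and Elovl6 were not called without TMM factors or on FPKM values. The rise of Elovl6 was also not called with upper-quartile factors (0.0733), and it was 0.0836 to 0.0935 and not called without aging replicate 2 or 3, or medium replicate 1 or 3. Lpin1, a phosphatidate phosphatase of glycerolipid synthesis, had 37.4 ± 1.23, 41.4 ± 0.442 and 33.8 ± 0.300 CPM (SD, n = 3) in normal RGCs, aging RGCs and the medium. Its rise in aging RGCs, 0.15, was not called by DESeq2 (adjusted p = 0.0626), without TMM factors, with no filter on low counts, on FPKM values, or by edgeR without normal replicate 3 or any one aging library (0.12 to 0.15), while its fall in the medium against aging RGCs was -0.29 ± 0.0567 (SE, edgeR adjusted p = 7.59e-05).

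Levels of different genes were compared as FPKM, which is scaled by transcript length. Scd2 was the most abundant of the 35, with 289 ± 6.21, 326 ± 5.14 and 333 ± 7.95 FPKM (SD, n = 3) in normal RGCs, aging RGCs and the medium. Acly and Fdps followed in normal RGCs, at 78.0 ± 2.23 and 76.5 ± 1.86 FPKM, which is within their spread, and in the medium Fdps stood at 178 ± 5.25 and Acly at 131 ± 6.08. Fasn and Scd1, at 66.0 ± 5.63 and 64.6 ± 4.40 FPKM in normal RGCs, also lay within their spread. Srebf1 and Srebf2 were of like level in normal RGCs, 55.7 ± 4.55 and 51.5 ± 2.47 FPKM, and in the medium Srebf1 was at 44.5 ± 2.54 and Srebf2 at 62.0 ± 2.07. Insig2 stood at 29.7 ± 2.29 and Insig1 at 14.7 ± 0.783 FPKM in normal RGCs, and at 20.8 ± 1.26 and 32.5 ± 0.929 in aging RGCs, so their order turned. Tm7sf2, Mvd and Hsd17b7 were the lowest in normal RGCs, at 2.70 ± 0.509, 4.54 ± 0.547 and 4.98 ± 0.110 FPKM.

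**Figure D5:**
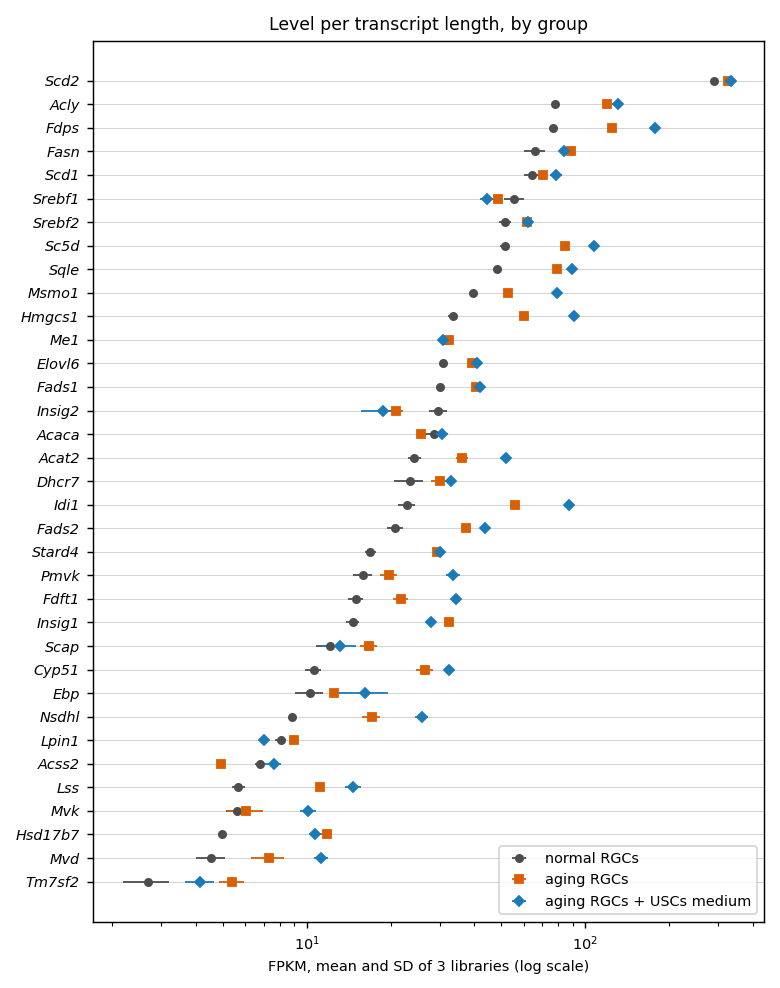
Mean FPKM and SD of 3 libraries per group for each gene, on a log axis, ordered by the level in normal RGCs. The genes span from 2.70 FPKM for Tm7sf2 to 289 FPKM for Scd2 in normal RGCs, and the markers of Insig1 and Insig2 change order between normal and aging RGCs.

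Outside the 35, a list of 44 further genes of these pathways, all tested, had medians near 0. In aging RGCs 13 rose and 7 fell, against 23.6% and 23% of all genes tested. In the medium over aging RGCs 13 rose and 12 fell, against 27.1% and 26%, and in the medium over normal RGCs 19 rose and 10 fell, against 30.6% and 29.9%. The counts of the groups within the list are small and are given as a description. The median log2 fold changes of all 44 were 0.039, 0.043 and 0.047. In the isoprenoid branch, which uses farnesyl diphosphate for dolichol, ubiquinone and protein prenylation, 1 of 8 genes rose and 1 fell in aging RGCs, and 3 rose in the medium. Among 7 genes of SREBP processing and turnover, 1 rose and 1 fell in aging RGCs, and 1 rose and 3 fell in the medium. Of 8 further sterol enzymes and carriers 3 rose and 2 fell in aging RGCs, and 2 rose and 3 fell in the medium. Of 21 further fatty acid and glycerolipid enzymes 8 rose and 3 fell, and then 7 rose and 6 fell. In the medium over normal RGCs 5 genes of the isoprenoid branch rose and 0 fell, with a median of 0.20. For SREBP processing and turnover 2 rose and 3 fell (median -0.0074), and for the further sterol enzymes and carriers 3 and 4 (-0.049). For the further fatty acid and glycerolipid enzymes 9 rose and 3 fell (0.073). Lpin3, a phosphatidate phosphatase like Lpin1, was the only one that was called and passed a log2 fold change of 1 in size. It had 0.260, 0.727 and 0.247 CPM in normal RGCs, 1.57, 1.44 and 1.32 in aging RGCs and 1.49, 0.943 and 0.973 in the medium, with 5 to 29 counts per library. All normal values lay below the others, and its log2 fold change was 1.81 ± 0.405 (SE, edgeR adjusted p = 0.000542) in aging RGCs and 1.46 ± 0.419 (SE, edgeR adjusted p = 0.00356) in the medium against normal RGCs.

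Genes of cell proliferation moved beside the sterol genes. All 10 of a list with Mki67, Top2a and Pcna rose in aging against normal RGCs, 7 of 10 rose in the medium over aging RGCs, and 10 of 10 in the medium over normal RGCs, against 23.6%, 27.1% and 30.6% of all genes tested. The summed level of this list was from 3055 to 3268 CPM in normal RGCs, from 4062 to 4181 in aging RGCs and from 4521 to 4623 in the medium, and none of its genes was at 0. These are RNA levels. By flow cytometry the paper reported more cells in G1 and fewer in S phase in aging than in normal RGCs. Why the RNA of this list went the other way was not tested. Of the 12 ganglion cell markers 5 were tested, and 4 of these fell in aging against normal RGCs (Rbpms, Nefl, Isl1 and Tubb3), while 23% of all genes tested fell. In the medium over aging RGCs Nefl fell and Tubb3, a neuronal tubulin, was 8.16-fold higher (log2 fold change 3.03, SE 0.129, edgeR adjusted p = 3.07e-17). Of the 10 macrophage markers 8 were tested, with 1 rise (Mrc1) and 5 falls (Csf1r, Adgre1, Lyz2, C1qb and Tyrobp) in aging RGCs. In the medium over aging RGCs there were 2 rises and 2 falls, where 27.1% of all genes tested rose and 26% fell. The 2 rises were of Adgre1, with 0.103, 0.0992 and 1.64 CPM in the medium, and C1qb, with 0, 0 and 0.768. Both rested on medium replicate 3 at low CPM, and medium and aging values overlapped. The part of these differences in the results for sterol and fatty acid genes was not tested.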

How the data were processed

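For each of 22322 genes and 9 libraries the authors deposited the expected count, an estimate of the gene's reads with no normalization, and the FPKM, in which that number is scaled to transcript length and depth. Per the labels, mRNA was enriched with oligo(dT) beads and the build was mm10. Aligner, counter and strand setting: not given in the sources used here. Groups came from the labels. Expected counts were rounded (6.92% to 7.38% per library carried decimals) and tested in R 4.3.3 with edgeR 4.0.16. The low-count filter filterByExpr, TMM factors, 1 mean per group over all 9 libraries and the quasi-likelihood F test were used, with Benjamini-Hochberg adjustment over the 12145 genes tested. The biological coefficient of variation was 3.78%. Standard errors were the log2 fold change divided by the root of F. Intervals had 95% confidence and cover the spread between these libraries.

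The members and lists were chosen with earlier results of these data known. Values by library are given for genes called with a log2 fold change of 1 or more in size, for the 5 called genes with the largest change in each comparison, and for the 5 SREBP regulators. Alternatives were DESeq2 1.42.0, the likelihood ratio test of edgeR, counts without TMM or with upper-quartile factors, all genes unfiltered, genes over 1 CPM in 3 libraries, fits of a single pair of groups, a replicate block, limma 3.58.1 on log2(FPKM + 1) and log2(FPKM + 0.1), a threshold on the fold change, and leaving out single libraries. Gene coordinates and exon overlaps came from GENCODE on GRCm38, in which all 35 genes were found, and promoters from RefSeq on GRCm38.p6. With 18189616 counts in the smallest library, counting error is small for most of the genes, and it is largest for Lpin3, with 5 to 29 counts per library, and Acacb, with 13 to 50.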

Additional observations from a re-analysis of the deposited data

How the results depend on the processing

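With a log2 fold change of 1 in size as a further threshold, the counts of genes that rose and fell became 5 and 0 in aging against normal RGCs, 0 and 0 in the medium against aging RGCs, and 15 and 0 in the medium against normal RGCs. Without TMM factors 7 genes fell in the medium against aging RGCs in place of 3. The median of all genes tested was then -0.085 in place of -0.0067, so the added falls moved with the scaling of all genes. When single libraries were left out, 28 to 29 genes rose and 2 to 3 fell in aging RGCs, 23 to 25 rose and 1 to 3 fell in the medium against aging RGCs, and 30 to 31 rose and 2 to 3 fell in the medium against normal RGCs. The low of 1 came without aging RGCs replicate 2. Same-numbered libraries had deviations that correlated at -0.0368 to 0.0479, and 5 of 18 best matches shared a number. No pairing by replicate number was seen, though with 3 libraries per group a small shared effect could be missed. With the replicate number as a block, 29 rose and 3 fell, 25 rose and 3 fell, and 31 rose and 3 fell in the 3 comparisons, as without it.

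On FPKM values fewer genes rose: 26, 20 and 28 by limma with either pseudocount, with Ebp and Scd1 in aging RGCs, Dhcr7 in the medium against aging RGCs, and Acss2 and Acaca in the medium against normal RGCs not called on these values alone among the alternatives. Of 665 log2 fold changes under the alternatives in aging against normal RGCs, 14 lost their call and 1 changed sign. In the medium against aging RGCs 32 lost a call, 8 gained one and 9 changed sign, and in the medium against normal RGCs 17 lost a call and 3 changed sign. The sign changes were of differences that were not called. With single libraries left out, Acaca in aging RGCs ranged from -0.054 to 0.0101, with the positive value without normal RGCs replicate 1. Fasn in the medium against aging RGCs ranged from -0.0352 to 0.0071, and was positive without aging RGCs replicate 2 (0.0036), without aging RGCs replicate 3 (0.0038) and without medium replicate 2 (0.0071). Me1 ranged from -0.007, without medium replicate 2, to 0.0295. Srebf2 in the medium against aging RGCs was -0.0177 without TMM factors. Me1 in that comparison was -0.0721 without TMM factors, -0.0225 with upper-quartile factors, -0.0702 on log2(FPKM + 1) and -0.0722 on log2(FPKM + 0.1). Against normal RGCs Me1 was -0.0432 without TMM factors, -0.041 on log2(FPKM + 1) and -0.0421 on log2(FPKM + 0.1).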

Other observations

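Among the 44 further genes of these pathways, 3 showed larger differences than the rest of the list outside Lpin3. They were chosen after their values were seen. Mid1ip1, which encodes an activator of acetyl-CoA carboxylase, had 39.5, 45.8 and 40.4 CPM in normal RGCs, 23.5, 23.5 and 20.7 in aging RGCs and 41.8, 45.0 and 38.9 in the medium. The medium values covered nearly the same range as the normal ones, and all aging values lay below both. By edgeR its log2 fold change was -0.89 in aging RGCs (adjusted p = 5.48e-11) and 0.89 in the medium over aging RGCs (adjusted p = 4.25e-11).

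Acacb, the acetyl-CoA carboxylase of the mitochondrial surface, had 1.73, 2.42 and 1.43 CPM in normal RGCs, 1.78, 2.01 and 1.92 in aging RGCs and 0.668, 0.744 and 1.59 in the medium, and its medium values lay below all aging values but overlapped the normal ones (log2 fold change -0.93 against aging RGCs, adjusted p = 0.017 by edgeR). Dgat2, which makes triacylglycerol, had 6.45, 8.38 and 6.96 CPM in normal RGCs, 7.95, 8.55 and 8.10 in aging RGCs and 3.85, 5.06 and 5.12 in the medium. It was lower in the medium than in aging RGCs by the edgeR test (log2 fold change -0.81, adjusted p = 3.08e-05).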
